A study of Mus musculus with 3 samples.

Results

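The annexin genes of mouse melan-a cells were described from RNA-seq of 3 replicates, labelled 1, 3 and 4, which are the only samples of the series and share 1 condition. The members were 10 of the 22698 genes in the files and were listed by symbol, *Anxa1* to *Anxa8*, *Anxa10* and *Anxa11*. The set was selected on FPKM of these same libraries, with the level per replicate, the order of the paralogs and the spread between replicates already seen, so all 3 are given as a description, with no test. Melan-a is an immortalized melanocyte line. The labels give a C57BL/6J background and melanocytes from Ink4a-ARF-/- mice, that is, all 3 replicates lack this tumor suppressor locus. The cells were not treated, but were grown with serum, the phorbol ester 12-O-tetradecanoylphorbol 13-acetate and cholera toxin, so all replicates share these agents as well. The replicates come from a single line, so an SD over them measures the spread between samples of that line, which may be technical.

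Annexins are cytosolic proteins that bind phospholipid membranes, above all phosphatidylserine, when calcium rises. They share a core of repeats that holds the calcium sites and differ in the N-terminal tail, which binds partners such as S100 proteins. Members are known for roles in membrane repair, exocytosis and endocytosis, the organization of actin at membranes and, when secreted or exposed, in inflammation and the handling of dying cells.

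The coding sequences were read first, for the calcium site of the shared core. The 15 bases GGNNNNGGNACNGAN, in frame, spell glycine, any residue, glycine, threonine and an acidic residue, the core of the annexin calcium site. They were found in 9 of the 10 members and in 309 of 22298 coding genes of the files (1.39%). The match is of letters on the coding strand of the transcript with the longest coding sequence, and nothing more. *Anxa6* had 4 matches, at codons 107, 378, 450 and 614 of 674. *Anxa3*, *Anxa4* and *Anxa5* had 3 each, *Anxa7* and *Anxa11* had 2 each, and *Anxa1*, *Anxa2* and *Anxa10* had 1 each. *Anxa8* held no match to these letters. A match is not particular to annexins, since a gene of another family held up to 7. The windows below show how the paralogs resemble each other around 1 match each, the one most like that of *Anxa2*. They run 5′ to 3′ for 45 bases, from the GENCODE M1 transcripts, with the 15 matched bases in capitals.
*Anxa2*: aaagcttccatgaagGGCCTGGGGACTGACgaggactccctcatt
*Anxa5*: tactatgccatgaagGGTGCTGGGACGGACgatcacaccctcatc
*Anxa1*: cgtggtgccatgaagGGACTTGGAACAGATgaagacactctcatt
*Anxa6*: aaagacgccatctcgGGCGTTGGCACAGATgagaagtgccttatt
*Anxa7*: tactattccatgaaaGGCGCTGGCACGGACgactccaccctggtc
*Anxa3*: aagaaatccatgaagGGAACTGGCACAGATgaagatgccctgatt
*Anxa11*: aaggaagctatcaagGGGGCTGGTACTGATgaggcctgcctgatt
*Anxa4*: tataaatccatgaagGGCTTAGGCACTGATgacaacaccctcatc
*Anxa10*: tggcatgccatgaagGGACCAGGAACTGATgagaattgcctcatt
Outside the fixed letters the windows differed at many bases. The 8 other windows shared from 28 (*Anxa7*) to 32 (*Anxa1* and *Anxa4*) of 45 bases with *Anxa2*, the fixed letters included. *Anxa10*, which had no reads in these cells, shared 31 of 45 and stood in the same range as the expressed paralogs.

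The files give 1 value per gene and replicate as FPKM, fragments per kilobase of gene and per 1000000 mapped, scaled by the authors with the trimmed mean of M values (TMM). Whole-read steps in low values gave scaled library sizes of 53900000, 47100000 and 66300000 reads for replicates 1, 3 and 4. Melanocyte markers were present, with 7 of 8 at 1 FPKM or more in every replicate and only *Kit* below. Of the markers of other cells, 0 of 5 keratinocyte, 1 of 5 fibroblast (*Col1a1*), 1 of 4 immune (*Lyz2*), 0 of 3 endothelial and 3 of 3 Schwann genes reached 1 FPKM in every replicate. Their summed levels per replicate ran from 0.36 to 0.7 FPKM for keratinocyte, 1.52 to 1.85 for fibroblast, 12.57 to 13.55 for immune and 85.41 to 136.99 for Schwann markers, and were 0.01 in each replicate for endothelial markers. Of these markers of other cells, *Ptprc*, *Itgam*, *Krt1*, *Trp63*, *Lum* and *Tek* were at 0 in all replicates. The others were above 0 in some replicate, among them every Schwann marker. The part of such cells in the annexin levels was not tested. Fewer cells of a type and less RNA per cell cannot be told apart in bulk samples.

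Of the 10 annexins, 8 were at 1 FPKM or more in every replicate. Among all genes of the files 44.1% passed the same limit. By mean FPKM, 5 members stood among the highest 1000 genes, which are 4.41% of all genes by definition. Added up, the members came to 2552.64, 2472.23 and 2569.1 FPKM in replicates 1, 3 and 4, or 2531 ± 52 on average (SD, n = 3). That was 0.674%, 0.627% and 0.716% of all FPKM in the respective replicate. *Anxa2*, *Anxa5*, *Anxa1* and *Anxa6* held 31.1%, 25.1%, 18.9% and 14.8% of the mean sum as deposited. These shares depend on the gene length. With the transcript of the longest coding sequence as length, the same 4 genes came to 2030, 636, 891 and 442 of a sum of 4370 FPKM.

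**Figure D1:**
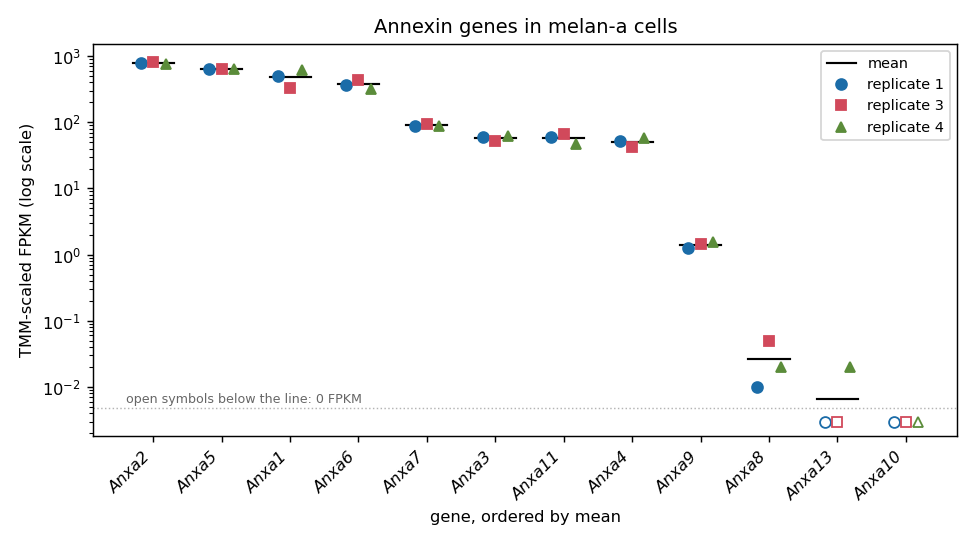
FPKM of the 10 members and of *Anxa9* and *Anxa13* in each replicate on a log scale, with a bar for the mean of 3 replicates and open symbols for values of 0. The first 4 genes stood between 319.62 and 816.4 FPKM and 4 more between 42.02 and 92.78 FPKM, while *Anxa8*, *Anxa13* and *Anxa10* were at 0.05 FPKM or less.

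*Anxa2* encodes the heavy chain of a tetramer with S100A10 that bridges membranes and actin and binds plasminogen at the cell surface. The gene (ENSMUSG00000032231) spans bases 69301427 to 69339602 of chromosome 9 in mm9, the build of all positions given for genes here, on the plus strand. Its level was 791.91, 816.4 and 753.99 FPKM in replicates 1, 3 and 4, and 787 ± 31 on average (SD, n = 3). It was the highest annexin in all 3 replicates and had rank 41 of 22698 genes. *Anxa5* (ENSMUSG00000027712), the protein used as a probe for phosphatidylserine on dying cells, lies on the minus strand of chromosome 3, from 36347847 to 36374765. It had 635.33, 638.92 and 632.71 FPKM in replicates 1, 3 and 4. Its mean was 636 ± 3.1 FPKM (SD, n = 3) at rank 59, and its highest value was 1.01 times its lowest. *Anxa2* exceeded *Anxa5* by 1.25, 1.28 and 1.19 times in replicates 1, 3 and 4, and their ranges did not overlap.

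*Anxa1* (ENSMUSG00000024659) encodes annexin A1 (lipocortin), a substrate of growth factor receptor kinases and, once released, a ligand that dampens inflammation. It lies on the minus strand of chromosome 19, from 20447918 to 20465434. Replicate 3 was the lowest, at 327.27 FPKM, replicate 1 had 497.5 and replicate 4 was the highest, at 608.66. The mean was 478 ± 142 FPKM (SD, n = 3) at rank 82. *Anxa6* (ENSMUSG00000018340), whose core of repeats is duplicated and which binds at endosomes and the plasma membrane, lies on the minus strand of chromosome 11, from 54792610 to 54846947. Here replicate 4 was the lowest, at 319.62 FPKM, replicate 1 had 370.01 and replicate 3 was the highest, at 437.1. The mean was 376 ± 59 FPKM (SD, n = 3) at rank 116. *Anxa5* was above *Anxa1* in each replicate, by 1.28, 1.95 and 1.04 times, although the gap in replicate 4 was small. *Anxa1* and *Anxa6* overlapped in range. *Anxa1* was the higher in replicates 1 and 4, by 1.34 and 1.9 times, and the lower in replicate 3, where the ratio was 0.749.

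The step from this group to the next annexin was the widest among the 8 expressed members. *Anxa6* exceeded *Anxa7* by 4.19, 4.71 and 3.66 times in replicates 1, 3 and 4. *Anxa7* (ENSMUSG00000021814) encodes synexin, named for fusing secretory vesicles, and lies on the minus strand of chromosome 14, from 21274483 to 21299355. It had 88.4, 92.78 and 87.37 FPKM and a mean of 89.5 ± 2.9 (SD, n = 3) at rank 667. The next 3 members stood close together below it.

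*Anxa3* (ENSMUSG00000029484), on the plus strand of chromosome 5 from 97222404 to 97274987, had 58.91, 52.11 and 62.58 FPKM and a mean of 57.9 ± 5.3 (SD, n = 3). *Anxa11* (ENSMUSG00000021866), which tethers RNA granules to lysosomes and binds the calcium sensor PDCD6, lies on the plus strand of chromosome 14 from 26661669 to 26706290. It had 59.32, 65.58 and 46.53 FPKM and a mean of 57.1 ± 9.7 (SD, n = 3). *Anxa4* (ENSMUSG00000029994), a protein that associates with membranes of secretory and epithelial cells, lies on the minus strand of chromosome 6 from 86686834 to 86743578. It had 51.25, 42.02 and 57.62 FPKM and a mean of 50.3 ± 7.8 (SD, n = 3). The order of these 3 genes was not the same in all replicates, their ranges overlapped and the means of *Anxa3* and *Anxa11* differed by less than either SD. Of the 9 neighbouring pairs in the order of the 10 members, 6 kept their direction in all 3 replicates and the other 3 overlapped in range. The 6 include *Anxa8* above *Anxa10*, a pair that rests only on the few reads of *Anxa8* given below.

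*Anxa8* and *Anxa10* made up the lower end of the order. *Anxa8* (ENSMUSG00000021950), on the plus strand of chromosome 14 from 34899167 to 34913757, was listed at 0.01, 0.05 and 0.02 FPKM in replicates 1, 3 and 4. With its 1880 exon bases these values stand for 1 read, 4 reads and between 1.87 and 3.12 reads, while 3 reads come to 0.0296, 0.0339 and 0.0241 FPKM. Only replicate 3 was above that limit, so an order of replicates cannot be read at this depth. *Anxa10* (ENSMUSG00000031635), on the minus strand of chromosome 8 from 64535839 to 64601915, was at 0 in all replicates, where 3 reads would have given 0.0312, 0.0357 and 0.0253 FPKM. The other 2 annexin genes of the files, which were not members, had 1.25, 1.46 and 1.55 FPKM (*Anxa9*) and 0, 0 and 0.02 FPKM (*Anxa13*). By comparison, the estimated reads on the 8 expressed members ran from 3920 (*Anxa3*, replicate 3) to 186511 (*Anxa2*, replicate 4).

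The order of paralogs also rests on the length by which reads were divided, which the sources used here do not give. Low values of genes with several transcripts were nearer to whole reads with the joined exons of all transcripts than with the longest coding transcript in each replicate (mean distance 0.19, 0.141 and 0.0893 against 0.217, 0.262 and 0.289 reads), but only 13, 24 and 8 genes could be used. For *Anxa2* the joined exons come to 3731 bases, against 1447 bases of its longest coding transcript. *Anxa5* and *Anxa3* have a single annotated transcript, of 1678 and 1597 bases, so their values do not move. When the same reads were divided by the transcript with the longest coding sequence, *Anxa2* came to 2030 ± 81, *Anxa1* to 891 ± 264, *Anxa5* stayed at 636 ± 3.1 and *Anxa6* came to 442 ± 69 FPKM (SD, n = 3). *Anxa1* then had a higher mean than *Anxa5*, with overlapping ranges and the higher value in 2 of 3 replicates. *Anxa4* rose from place 8 to place 5, at 115 ± 18 FPKM, and *Anxa3* went from place 6 to place 8 below *Anxa7* and *Anxa11*, both at 99.2 FPKM. With the longest coding transcript as length, *Anxa1* was again second, at 744 ± 221 FPKM, and *Anxa4* had place 7, at 88.1 ± 13.7 FPKM. Under both lengths 7 members stood among the highest 1000 genes. *Anxa2* at the top, *Anxa6* in place 4 and *Anxa8* and *Anxa10* at the end held their places under all 3 lengths.

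**Figure D2:**
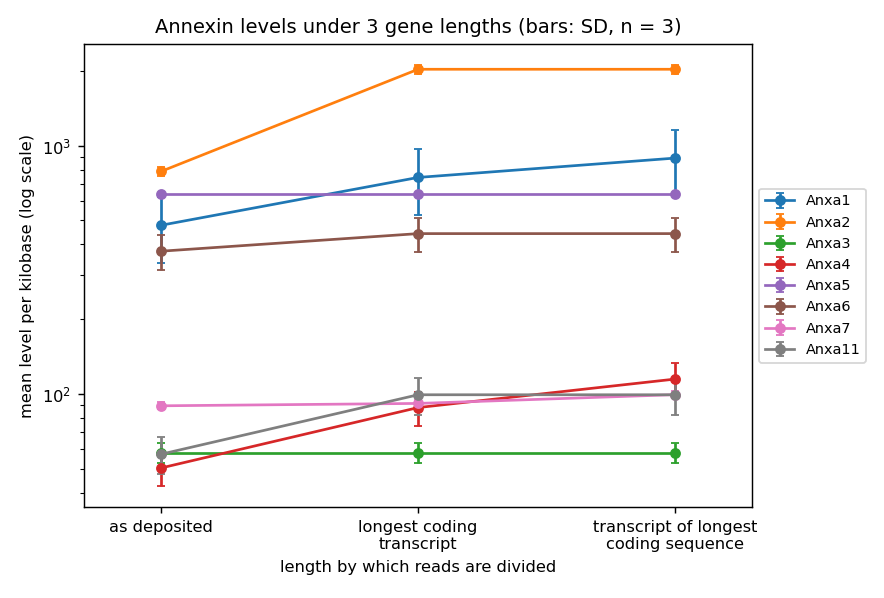
Mean level of the 8 expressed annexins per kilobase on a log scale, as deposited and after division of the same reads by the length of a single coding transcript, with bars for the SD of 3 replicates. *Anxa2* went from 787 to 2030 FPKM, *Anxa1* crossed *Anxa5*, and *Anxa3* became the lowest of the 8.

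The spread between replicates differed among the paralogs. The coefficient of variation (CV, SD divided by mean) was 29.7% for *Anxa1*, 17% for *Anxa11*, 15.7% for *Anxa6* and 15.6% for *Anxa4*. It was 9.18% for *Anxa3*, 3.99% for *Anxa2*, 3.21% for *Anxa7* and 0.49% for *Anxa5*. A CV of at least 10% was thus found in 4 of 8 expressed members, against 56.3% of the 10011 genes at 1 FPKM or more in every replicate, whose median CV was 11.4%. Without replicate 3 the CV of *Anxa1* was 14.2%, and those of *Anxa3*, *Anxa4*, *Anxa5*, *Anxa6* and *Anxa7* also fell by more than 1.5 times, to 4.27%, 8.27%, 0.292%, 10.3% and 0.829%. Without replicate 4 the same held for *Anxa11* and *Anxa2*, at 7.09% and 2.15%. The count at 10% or more was then 3 of 8 in either case (42.9% and 33.9% of all these genes), and 5 of 8 without replicate 1 (65.3%). A CV as large as that of *Anxa1* was found in 5.39% of these genes, and 99.7% had one as large as that of *Anxa5*. The low CVs depend on the scaling between libraries. When all genes of a library were made to add up to 1000000, the CV of *Anxa5* was 4.28%. That of *Anxa2* was then the lowest, at 0.768%, that of *Anxa7* was 2.26% and that of *Anxa3* was 13.8%. With a common median the CV of *Anxa5* was 1.5%.

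The paralogs did not deviate in the same direction. In all 8 expressed members the highest and the lowest value came from replicates 3 and 4, in either order. Replicates 3 and 4 were compared on the scale of log2(FPKM + 1), and a difference of at least 1.25-fold was counted. *Anxa6* and *Anxa11* were higher in replicate 3, by 0.45 and 0.49, and *Anxa1* and *Anxa4* were higher in replicate 4, with differences of -0.89 and -0.45 (replicate 3 minus replicate 4). These were 2 of 8 members in either direction, beside 20.9% of all tested genes higher in replicate 3 and 20.8% higher in replicate 4. Between replicates 1 and 3, *Anxa1* alone passed, higher in replicate 1 by 0.6 (7.26% of all tested genes were higher there and 1.14% were higher in replicate 3). Between replicates 1 and 4, *Anxa11* alone passed, higher in replicate 1 by 0.34 (9.24% of all tested genes were higher there and 7.64% were higher in replicate 4). Each of these differences compares single libraries and has no replicate check. The split between replicates 3 and 4 also depends on the scaling. When all genes of a library were made to add up to 1000000, *Anxa6* differed by 0.315, below the limit of 0.322. *Anxa3* then differed by -0.398 and passed it, while *Anxa1*, *Anxa4* and *Anxa11* still passed. The share of all genes under that scaling was not counted.

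**Figure D3:**
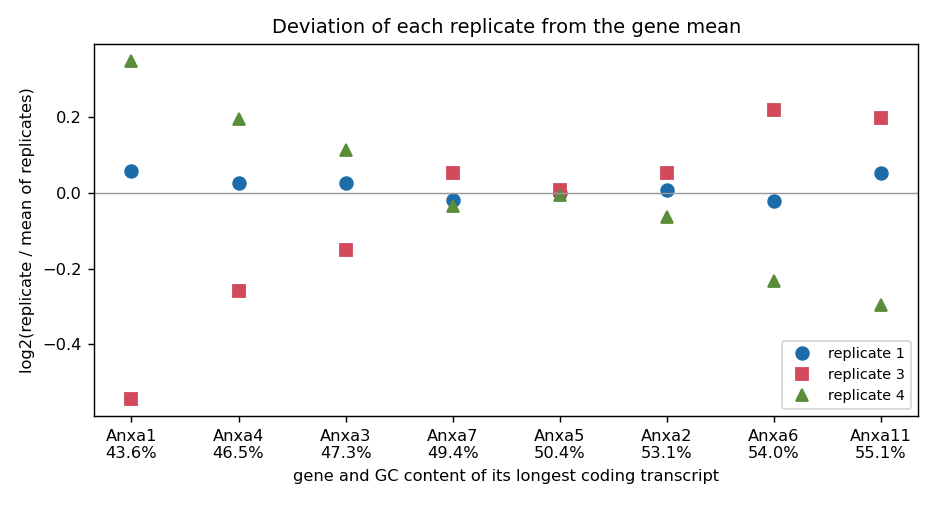
log2 of each replicate's FPKM over the mean of the 3 replicates for the 8 expressed annexins, ordered by the GC content of the longest coding transcript. Replicate 4 was the highest and replicate 3 the lowest for *Anxa1*, *Anxa4* and *Anxa3*, at 43.6% to 47.3% GC. The reverse held for *Anxa7*, *Anxa5*, *Anxa2*, *Anxa6* and *Anxa11*, at 49.4% to 55.1% GC.

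The base composition of the transcripts moved with these differences. Among the 8 expressed annexins, Spearman's rho between GC content and the log2 difference of replicates 3 and 4 was 0.976. It was -0.905 for replicates 1 and 3 and 0.976 for replicates 1 and 4. The 3 pairs share libraries, and the 8 points are genes of the same libraries, so no p is given. Across the 10006 expressed genes with a coding transcript the values were 0.781, -0.726 and 0.704. After the trend on GC over these genes was removed, *Anxa1* still differed by -0.49 between replicates 3 and 4, and 5.59% of genes differed as much. *Anxa4* then differed by -0.22, *Anxa6* by 0.24 and *Anxa11* by 0.22, all below 1.25-fold. Between replicates 1 and 3, *Anxa1* differed by 0.39 after removal, a size reached by 1.21% of genes. The CV of *Anxa1* went from 29.7% to 17.2%, and that of *Anxa7* from 3.21% to 5.09%. *Anxa1* alone of the 8 then had a CV of at least 10%, beside 32.5% of the 10006 genes. By scaled library size replicates 3 and 4 are also the shallowest and the deepest, so depth and GC content cannot be told apart here.

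**Figure D4:**
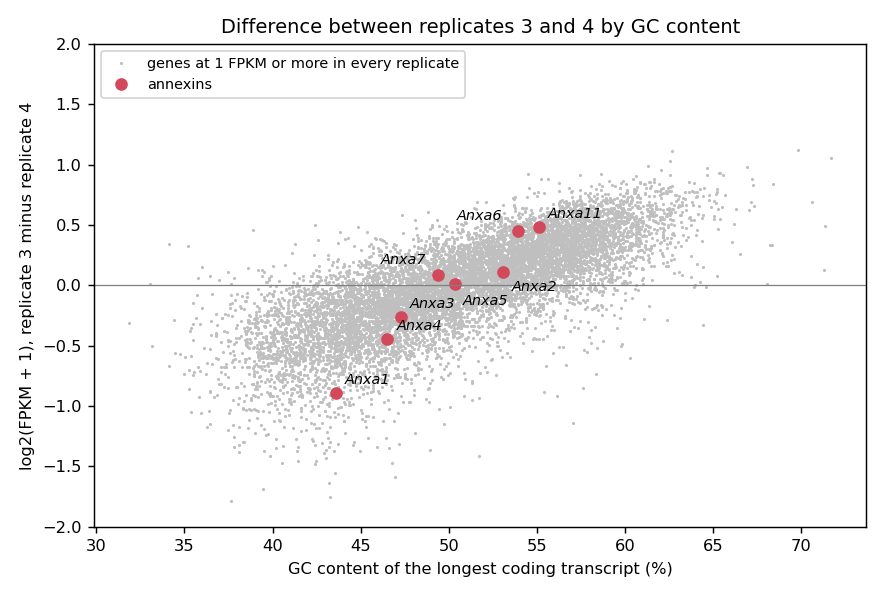
Difference of log2(FPKM + 1) between replicates 3 and 4 against GC content of the longest coding transcript, for expressed genes (grey) and the 8 expressed annexins (red). The annexins run from -0.89 (*Anxa1*, 43.6% GC) to 0.49 (*Anxa11*, 55.1% GC), within the cloud of all genes.

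By distance in log2(FPKM + 1) over the 3 replicates, the genes most like *Anxa2* were *Rps26*, *Rps26-ps1* and *Atp5b*, at distances of 0.122, 0.122 and 0.164. *Rps26-ps1* shares sequence with *Rps26*, so the split of reads between them is uncertain. Those most like *Anxa1*, the expressed member with the largest CV, were *Cpe*, *Itgb1* and *Dynlrb1*, at 0.252, 0.474 and 0.572. *Cpe* had 440.13, 324.71 and 537.34 FPKM in replicates 1, 3 and 4, with the same order of replicates as *Anxa1*. *Itgb1* and *Dynlrb1* had that order as well. All were picked as nearest over these same values, so a shared order is largely given by the choice. These likenesses rest on 3 values each.

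Promoters were read for features that go with the ends of the order. RefSeq windows from 250 bases before to 50 after the start (GRCm38.p6) were matched for 8 of the 10 members, with 10 windows, since *Anxa4* and *Anxa7* have 2 starts each. *Anxa3* and *Anxa6* were not matched. The letters TATAAA, on either strand, were in 3 of the 10 windows and in 13.6% of 32851 windows of all genes. They stood 32 bases before the start in *Anxa1* and in *Anxa10*, and 17 bases before it in *Anxa2*. These are the expressed annexin with the largest CV, the one at 0 and the highest. The same letters thus occurred at both ends of the order. These 3 promoters are shown for that reason, as the 250 bases before the start, 5′ to 3′ on the strand of the gene, with TATAAA in capitals. In GRCm38.p6 they lie at chr9:69453433-69453682 (plus strand), chr19:20390672-20390921 (minus strand) and chr8:62123194-62123443 (minus strand).
*Anxa2*: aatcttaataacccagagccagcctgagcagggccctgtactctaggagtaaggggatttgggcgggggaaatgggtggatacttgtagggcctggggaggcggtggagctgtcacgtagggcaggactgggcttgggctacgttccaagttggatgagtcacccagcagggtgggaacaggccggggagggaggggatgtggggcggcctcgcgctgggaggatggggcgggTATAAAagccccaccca
*Anxa1*: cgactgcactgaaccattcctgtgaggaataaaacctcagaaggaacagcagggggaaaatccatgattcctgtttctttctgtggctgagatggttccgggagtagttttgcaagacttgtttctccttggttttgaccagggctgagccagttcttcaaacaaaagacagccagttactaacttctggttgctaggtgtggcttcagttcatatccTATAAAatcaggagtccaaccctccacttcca
*Anxa10*: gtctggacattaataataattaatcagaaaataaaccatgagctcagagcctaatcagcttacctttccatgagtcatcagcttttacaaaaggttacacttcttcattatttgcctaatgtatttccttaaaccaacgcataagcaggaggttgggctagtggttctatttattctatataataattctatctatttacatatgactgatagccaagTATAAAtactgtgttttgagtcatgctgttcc
Base composition set the 3 windows apart. The 300-base window of *Anxa2* had 63.7% GC and 13 CpG dinucleotides, that of *Anxa1* had 47.3% and 3, and that of *Anxa10* had 34.3% and 1. The median over all windows was 52.7% GC and 7 CpG. *Anxa5* had 16 CpG and *Anxa11* had 25, while *Anxa8* had 5, and the windows of *Anxa4* and *Anxa7* had 3 and 20 and 4 and 19. The palindrome GCCNNNGGC, a core that TFAP2 factors bind, was in 1 of the 10 windows (*Anxa4*) and in 16.6% of all windows. CACGTG or CATGTG, on either strand, the E-boxes that MITF can bind, were in 2 of the 10 and in 20.4% of all. Both windows are of *Anxa7* and overlap, but the matches, at -113 and -78 from the respective start, are different sites. GGGCGG, on either strand, was in 5 of the 10 and in 35.7% of all.

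Genes of proteins that bind annexins were read beside them. Of 10 such genes, 7 were at 1 FPKM or more in every replicate, beside 44.1% of all genes. *Fpr1*, *Fpr2* and *Plg* were at 0 in all replicates. The median of the 10 means was 37.2 FPKM, against 0.277 over all genes. *S100a10*, the light chain that pairs with annexin A2, had 323.85, 326.44 and 313.72 FPKM in replicates 1, 3 and 4. The ratio of *Anxa2* to *S100a10*, by the levels as deposited, was 2.45, 2.5 and 2.4 in the same replicates. The CV was 3.99% for *Anxa2* and 2.09% for *S100a10*. *S100a11*, a partner of annexin A1, had 1330.56, 1447.51 and 1268.34 FPKM, above every annexin as deposited. With either of the other lengths *Anxa2* came to 2030 FPKM, while levels of the partners are given as deposited only. The ratio of *S100a11* to *Anxa1* was 2.67, 4.42 and 2.08. *Ahnak*, a very large scaffold bound by the annexin A2 complex, had a mean of 34.4 ± 5.7 FPKM (SD, n = 3). *S100a6*, a ligand of annexin A11, had a mean of 127 ± 16 FPKM.

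The calcium sensors *Pdcd6* and *Sri*, which bind annexins A11 and A7, had means of 30.2 ± 2.5 and 40.1 ± 0.78 FPKM (SD, n = 3). *Plat*, the plasminogen activator that acts with annexin A2 at the cell surface, had 44.3, 49.43 and 49.74 FPKM, while its substrate *Plg*, a gene of liver, was at 0. The formyl peptide receptors *Fpr1* and *Fpr2*, through which secreted annexin A1 acts on leukocytes, were at 0 in each replicate beside the 327.27 to 608.66 FPKM of *Anxa1*.

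**Figure D5:**
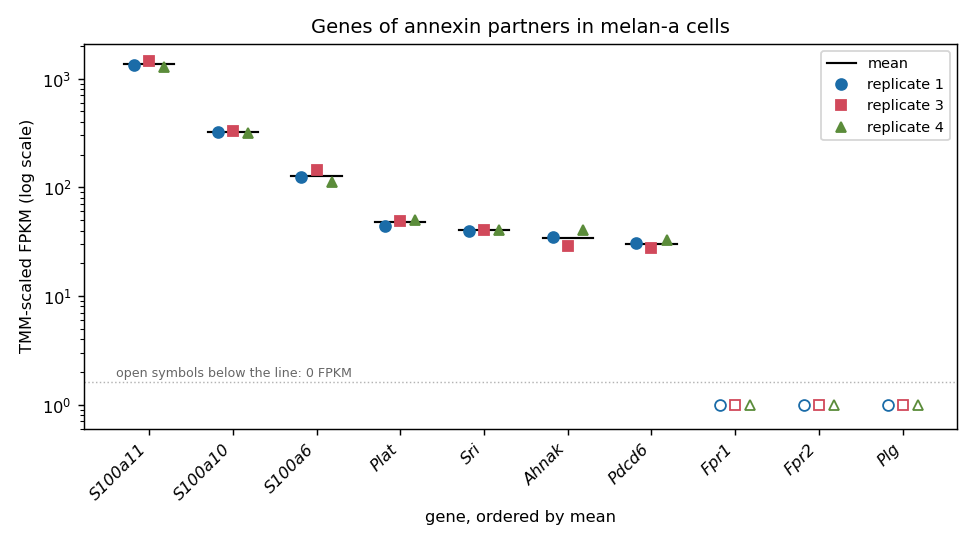
FPKM of 10 genes of annexin partners in each replicate on a log scale, with a bar for the mean of 3 replicates and open symbols for values of 0. *S100a11* and *S100a10* were the highest, at means of 1349 and 321 FPKM, and *Fpr1*, *Fpr2* and *Plg* were at 0 in all 3 replicates.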

How the data were processed

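Poly(A) RNA of untreated melan-a cells was sequenced from stranded libraries, 3 replicates of 1 group. Per the study's methods and the labels, the authors trimmed 10 bases from each read, aligned to mm9 with STAR 2.3.0e, removed rRNA reads and counted on Ensembl release 67 with HTSeq 0.5.3p3. The authors deposited TMM-scaled FPKM for 22698 genes, rounded to 2 decimals. The conversion, the strand setting and the treatment of reads with several matches are not given in the sources used here.

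Symbols, positions and lengths came from GENCODE M1 (mm9, Ensembl release 65), which holds 22324 of the genes. Exons of 9 members overlapped no other gene, and 2.63% of those of *Anxa2* overlapped *Gm16144* on the opposite strand. Library sizes were taken where low FPKM of genes with 1 transcript gave whole reads, from 50, 69 and 31 genes, and were tested on simulated data. The lowest measurable level was set at 3 reads, which covers counting error only. GC trends were fitted by lowess (fraction 0.3) on log2(FPKM + 0.1), and ratios used a pseudocount of 1. With 1 condition no comparison between groups was possible and no test was run. Members and lists were chosen with earlier results of these data known. Named genes were the 10 members, the listed relatives, partners, membrane repair genes, scramblases and flippases, cell type markers, and the 3 genes nearest to the highest and to the most variable expressed member. The level of 1 listed gene is not reported here. Alternatives were the median, each replicate left out, rescaling, GC removal, other limits and, chosen after seeing the data, 2 other lengths. Tools were pandas 2.3.3 and numpy 2.4.6 under Python 3.11.15, statsmodels 0.14.6 for lowess, scipy 1.17.1 for rank correlations and matplotlib 3.10.9 for plots.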

Additional observations from a re-analysis of the deposited data

How the results depend on the processing

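The 8 members at 1 FPKM or more stayed 8 with limits of 0.5 and 2 FPKM, without each replicate, after rescaling and after GC removal. The 5 members among the highest 1000 genes stayed 5 under the median, the filter on zeros, both rescalings, GC removal and with each replicate left out. They were 4 among the highest 500. With each replicate left out, the summed level was 2512 to 2561 FPKM, the ratio of *Anxa2* to *Anxa5* was 1.22 to 1.26 and the neighbouring pairs that kept their order were 6 to 8. The sum moved to 6721 when all genes of a library were made to add up to 1000000, and to 4370 and 4189 with the transcript of the longest coding sequence and the longest coding transcript as length. The ratio of the highest to the next member, then *Anxa1*, moved to 2.28 and 2.73 with these lengths. No paired analysis was possible because the series holds a single group. The CV of each expressed member moved by over 1.5 times after GC removal, by values given above for *Anxa1* and *Anxa7*. The CVs of *Anxa2* and *Anxa5* also moved that much when libraries were made to add up to 1000000. Depth limits *Anxa8* and *Anxa10*.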

Other observations

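Phosphatidylserine, the lipid that annexins bind, is moved across the membrane by scramblases and flippases, and their genes were read in the same replicates. Of 10 genes listed, 7 were at 1 FPKM or more in every replicate, beside 44.1% of all genes of the files. The calcium-activated scramblase gene *Ano6* had the highest level, at 57.7 ± 4.6 FPKM (SD, n = 3), followed by *Plscr1* at 38.2 ± 1.4 and *Plscr3* at 36.9 ± 5.2. *Xkr8*, a scramblase cut by caspases, had 2.64 ± 0.051 FPKM, while *Xkr4* and *Xkr9* were at 0.06 FPKM or less. The flippase *Atp11a* had 29.7 ± 2 FPKM and its partner *Tmem30a* 33.3 ± 3.6.

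Annexins also take part in the repair of torn membranes. Of 15 genes listed for repair, 14 were found in the files. Of these, 11 were at 1 FPKM or more in every replicate, beside 44.1% of all genes. The median of the 14 means was 28.1 FPKM, against 0.277 over all genes. *Capns1*, the small calpain subunit, was the highest at 531 ± 99 FPKM (SD, n = 3), followed by *Capn2* at 103 ± 9 and *Chmp4b*, of the ESCRT-III complex, at 96.6 ± 16.5. *Dysf*, the dysferlin gene, had 15.8 ± 3.3 FPKM and its relative *Myof* 37.3 ± 3.8. The muscle genes *Trim72* and *Cav3* were at 0.01 FPKM or less in every replicate, beside 11.3 ± 0.4 FPKM for *Cav1*.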
